A study of Homo sapiens with 30 samples.

Results

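The late response to Omomyc was compared between HCT116 and Ramos cells in 12 of the 30 libraries of the study, 3 in each of 4 groups. The groups were HCT116 cells left untreated, HCT116 cells given 10 μM Omomyc for 24 h, Ramos cells left untreated and Ramos cells given 2.5 μM Omomyc for 24 h, which are the highest dose and last time of each line. A gene was taken if its mean RPKM over the 12 libraries was at least 0.5, which kept 15674 of the 57992 genes in the table. RPKM is the read number of a gene divided by its length and by the size of its library.

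HCT116 is a colorectal carcinoma line described in the labels as having stabilized MYC, and Ramos is a Burkitt lymphoma line described there as carrying a MYC translocation. The HCT116 cells were treated together with ProteoJuice, a reagent that carries proteins into cells, and the study's methods do not state whether their untreated controls received it. They describe neither a culture of Ramos for sequencing nor a reagent for it. The line and the delivery therefore cannot be told apart in the difference between lines. The dose differs as well, and values for HCT116 at its lower dose, given as 2 μM in the labels and 2.5 μM in the study's methods, are set beside the main ones where they bear on a result. The titles of the treated libraries give 24 h while a tag of the same libraries reads 4 h, and the titles were followed. Replicates carry the numbers 1 to 3, with no statement that they came from separate cultures, so the p-values measure the spread between these samples, which may be technical.

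MYC is a transcription factor that binds DNA as a dimer with MAX, most strongly at the E box CACGTG. Omomyc is a miniprotein derived from the dimerization and DNA-binding region of MYC that enters cells, pairs with MAX or with itself and occupies E boxes without activating the gene. HCT116 cells carry a mutated RAS gene and an active WNT pathway, and Ramos cells a rearranged MYC gene under the control of an immunoglobulin locus, so both have high MYC by different routes.

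Ramos expressed all of its markers and HCT116 a part of its own. The summed RPKM of 16 colon epithelial genes was between 1907 and 2080.4 in the HCT116 libraries and at most 1.07 in the Ramos libraries. The sum of 12 B cell genes was between 1908 and 1987 in Ramos and at most 3.25 in HCT116. Only 8 of the 16 colon genes were at 0.5 RPKM or more in HCT116, and 7 were under 0.1 in its untreated cells, CDX1, VIL1 and CEACAM5 among them. All 12 B cell genes reached 0.5 RPKM in Ramos. KRT18 and KRT19, keratins of epithelia, were listed at 0 in the 3 untreated Ramos libraries and at 0.05 to 0.303 RPKM in the 3 treated ones, and their part in any result was not tested. Summed over genes, RPKM came to between 593633 and 729627 per HCT116 library and between 783788 and 973736 per Ramos library. Much of that sum came from 4 small RNAs of RNA polymerase III, RN7SK, RN7SL1, RN7SL2 and RPPH1, whose share went from 17.0-23.3% to 21.7-28.0% with Omomyc in HCT116 and from 38.8-43.6% to 30.3-34.1% in Ramos. The sum over protein-coding genes, without those of the mitochondrial genome, moved far less, between 429164 and 483955 over the 12 libraries. Replicates correlated at 0.99 or more on the log2 scale, and the median SD of a gene was between 0.0747 and 0.103 in the 4 groups.

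The response of HCT116 took in many more genes than that of Ramos. Log2(RPKM + 0.5) was fitted with limma over the 4 groups, which share an estimate of the spread, and a gene was called at a Benjamini-Hochberg adjusted p under 0.05. In HCT116, 5379 genes were called (34.3% of those tested), of which 2956 (18.9%) rose and 2423 (15.5%) fell. In Ramos, 887 were called (5.66%), with 651 rises (4.15%) and 236 falls (1.51%). The change itself differed between the lines, as the interaction of line and treatment, for 3530 genes (22.5%). The HCT116 change was the higher of the pair for 1512 of them (9.65%) and the lower for 2018 (12.9%). Of the 3530, 709 were in genes at 0.5 RPKM or more in 1 line only, where the other line enters with a mean under 0.5 RPKM. With HCT116 at its lower dose, 2565 genes differed (16.3%). The median absolute log2 change of the genes called was 0.37 in HCT116 and 0.323 in Ramos, and 155 genes in HCT116 against 24 in Ramos moved by at least 1.

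Each gene was then put in a class by its calls. Called in both lines with the same direction were 254 genes (1.62% of those tested), 203 up and 51 down. The lines moved in opposite directions for 112 genes (0.715%), of which 84 fell in HCT116 and rose in Ramos and 28 did the reverse. Together these are 366 of the 887 Ramos calls, or 41.3%, against 34.3% of all genes called in HCT116. A further 2716 genes were specific to HCT116, meaning that they were called there, not called in Ramos and past the threshold for the difference, and 313 were specific to Ramos by the same rule. For 2505 genes called in 1 line, the difference did not pass, so that these cannot be placed. Of the 2716 HCT116-specific genes, 2149 had a mean of at least 0.5 RPKM in both lines, and 543 reached that level in HCT116 only, where a low level in Ramos is enough to set the class.

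Among the 11497 genes expressed in both lines, the changes of the lines had a Pearson r of 0.00309 and a Spearman rho of 0.0452 across genes, which are not independent replicates, and 51.9% had the same sign. The share was 69.0% of the 2439 HCT116 rises, 35.4% of the 1885 HCT116 falls, 62.8% of the 599 Ramos rises and 63.6% of the 143 Ramos falls. The median change of all 11497 genes was itself above 0, at 0.0294 in HCT116 and 0.0549 in Ramos. Such an offset raises the share for HCT116 rises and lowers it for HCT116 falls, so the 69.0% and 35.4% cannot be read against 51.9% alone. Of the 700 genes that rose by at least 0.5 in HCT116, 421 were also above 0 in Ramos, but their median there was only 0.0556 against 0.636 in HCT116. Of the 322 that fell by at least 0.5 in HCT116, 153 were below 0 in Ramos, where their median was 0.00699. The plot of both changes shows the large HCT116 changes lying along its horizontal axis.

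**Figure D1:**
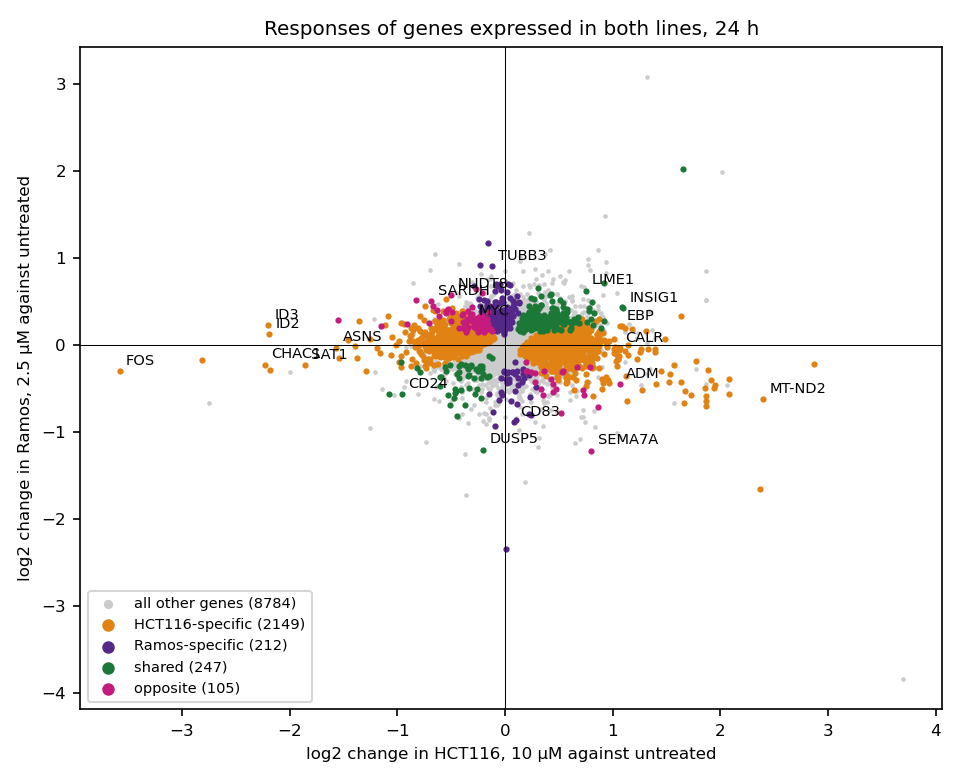
Log2 change in HCT116 cells with 10 μM Omomyc (horizontal axis) and in Ramos cells with 2.5 μM (vertical axis), both at 24 h against untreated cells, for the 11497 genes expressed in both lines, each a point colored by class with the number of genes in the key. The HCT116-specific genes spread along the horizontal axis as far as -3.58 for FOS, while the 247 shared and 105 opposite genes lie close to the center.

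Because these are bulk libraries, fewer cells with a transcript and less of it per cell cannot be told apart. The Ramos side of these numbers was sensitive to scaling, to single libraries and to the spread shared with HCT116. With each line fitted alone, Ramos had 212 calls. Of 75 Ramos calls checked among genes discussed below, 50 were lost in that fit. A fit of all 30 libraries lost 28 of the 75, and one with a term for replicate number lost 26. Where a call is said below to be kept, only scaling or single libraries are meant. Rescaling by the median ratio to a reference library, by quantiles or to an equal sum over protein-coding genes left 460, 433 and 456 Ramos calls, of which 40.2%, 45.7% and 49.1% were rises against 73.4% as deposited. Under them the shared genes numbered 121, 113 and 122 and the opposite ones 57, 55 and 59. Without treated Ramos replicate 1, 2 or 3, the Ramos calls numbered 395, 245 and 298, and without untreated Ramos replicate 1 or 2, 589 and 340. The same 5 fits gave 105, 70, 87, 156 and 107 shared genes. The first 3 of them and the fit without untreated Ramos replicate 2 left 54, 24, 35 and 45 opposite genes, and the fits without untreated HCT116 replicate 1 or 3 left 66 and 64. The HCT116 calls stayed between 3962 and 5591 and those of the difference between 2563 and 3335 when any of the 12 libraries was left out. An equal sum over all genes, which takes in the small RNAs, moved the median change of all genes from 0.02 to -0.13 in HCT116 and from 0.03 to 0.21 in Ramos, and 5.34% of its 6763 differences were higher in HCT116. Below, the 3 scalings are the median ratio, quantiles and the protein-coding sum, which leaves out genes of the mitochondrial genome. The counts of every gene list below are to be read beside the shares of all genes, 18.9% rises and 15.5% falls in HCT116 and 4.15% and 1.51% in Ramos. For called differences, 9.65% of all genes had the higher change in HCT116 and 12.9% the lower. With HCT116 at its lower dose, 26.1% of all genes were called there and 16.3% differed.

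MYC itself moved in opposite directions. In HCT116 it was at 115, 116 and 124 RPKM in the untreated libraries and 97.7, 93.2 and 96.7 in the treated ones, and in Ramos at 131, 137 and 153 and 162, 177 and 168. The groups did not overlap in either line. MYC fell by 0.30 on the log2 scale in HCT116 (adjusted p = 0.00235, limma) and rose by 0.27 in Ramos (adjusted p = 0.0231), a difference of -0.57 with a 95% interval of -0.75 to -0.39 (adjusted p = 0.000912). The Ramos rise was not past the threshold under the 3 scalings, with adjusted p of 0.0667 to 0.0788, nor without untreated Ramos replicate 1 or 2 or treated replicate 2 or 3, where it was 0.0636 to 0.0958. MAX, the partner that MYC and Omomyc share, was called in neither line, with changes of -0.06 and -0.06 and an interval of -0.25 to 0.25 for the difference. Of 12 genes of the MYC network tested, 3 fell and 2 rose in HCT116 and 1 rose in Ramos. The MAX partners MXD4 and MXI1, which oppose MYC, fell in HCT116 by 0.46 and 0.34, while their Ramos changes of 0.26 and 0.12 did not pass.

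Genes of sterol synthesis rose in both lines. They are driven by SREBP2, a transcription factor released from the endoplasmic reticulum when sterols are low and held there by INSIG proteins. Of 24 genes tested, 21 rose and 0 fell in HCT116, with a median of 0.59 against 0.02 for all genes, and 12 rose and 0 fell in Ramos, with a median of 0.23 against 0.03. For 15 the difference was called with the larger rise in HCT116 at its higher dose, and for none was it called with the larger rise in Ramos. Some of the differences that were not called leaned toward Ramos. The list is read here by its counts beside the shares of all genes given above, 18.9% for rises in HCT116 and 4.15% in Ramos.

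INSIG1, which retains SREBP in the endoplasmic reticulum and is itself a target of it, was at 12.7, 14.7 and 12.5 RPKM in untreated and 28.4, 34 and 25.1 in treated HCT116 cells. In Ramos it was at 58.6, 49.7 and 52.6 and 69.4, 72.9 and 73.1. The groups were apart in both lines, with rises of 1.10 and 0.42 (adjusted p = 1.91e-05 and 0.0349, limma). DHCR7, the enzyme of the last step to cholesterol, rose by 0.81 and 0.49 (difference 0.32, interval 0.02 to 0.61). The enzymes MSMO1 and SQLE rose in both but more in HCT116, by 0.92 and 0.62 against 0.27 and 0.26, although for SQLE the difference turned to -0.02 with an equal sum over all genes. The sterol isomerase EBP and the desaturase SC5D rose in HCT116 by 1.07 and 0.70, and their Ramos changes of 0.21 and -0.08 did not pass.

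The larger rise in HCT116 went with its larger dose. With the lower dose of HCT116 in place of 10 μM, 12 of the 24 genes rose and 0 fell in HCT116, where 26.1% of all genes were called, and their median was 0.251. The median difference from Ramos was -0.001 and 3 of the 24 differed, EBP among them. INSIG1 rose by 0.70 at this dose and no longer differed from Ramos (difference 0.28, adjusted p = 0.479, limma). Both doses are set against the same untreated libraries. The Ramos part of the list was the weak one, since 2 of the 24 genes passed in Ramos under each of the 3 scalings, with medians of 0.166 to 0.183, and between 1 and 14 passed when a library was left out. Treated Ramos replicates 2 and 3 were among those on which the Ramos calls of INSIG1, DHCR7, MSMO1 and SQLE rested, with adjusted p without 1 of the 12 libraries of up to 0.114, 0.0621, 0.0888 and 0.0995. An equal sum over all genes brought the median difference to 0.005.

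**Figure D2:**
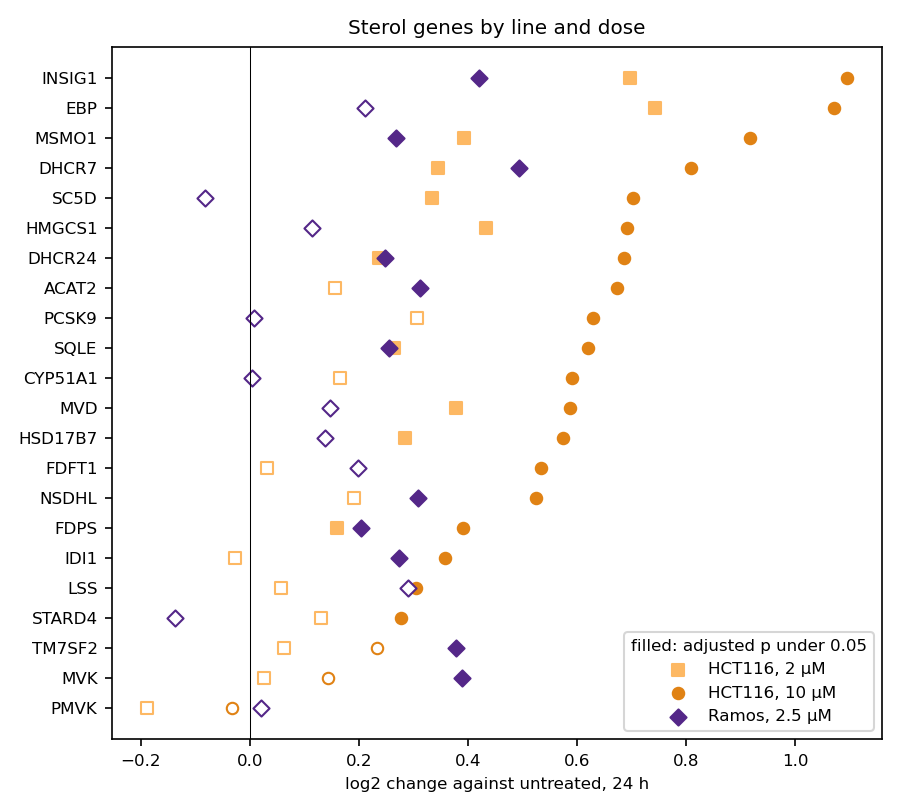
Log2 change against untreated cells at 24 h (horizontal axis) of 22 of the 24 sterol genes tested (rows), in HCT116 cells at the lower dose (squares) and at 10 μM (circles) and in Ramos cells at 2.5 μM (diamonds), filled where the adjusted p was under 0.05. The 10 μM circles lie farthest right for most genes, and the squares and diamonds overlap. The medians over the 24 genes are 0.59, 0.251 and 0.23.

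Promoters with the E box that Omomyc and MYC bind are shown for the genes of the shared and opposite responses that held it among those picked for size of change or membership of the sterol list. The 250 bases upstream of the gene are given 5′ to 3′ on the strand of the gene from RefSeq on GRCh38.p14, with CACGTG in capitals. INSIG1 (chr7:155297628-155297877, plus strand) and B3GALT6 (chr1:1231987-1232236, plus strand) rose in both lines, ANXA6 (chr5:151157780-151158029, minus strand) fell in both, and PRKAR2B (chr7:107044455-107044704, plus strand) fell in HCT116 and rose in Ramos.
INSIG1: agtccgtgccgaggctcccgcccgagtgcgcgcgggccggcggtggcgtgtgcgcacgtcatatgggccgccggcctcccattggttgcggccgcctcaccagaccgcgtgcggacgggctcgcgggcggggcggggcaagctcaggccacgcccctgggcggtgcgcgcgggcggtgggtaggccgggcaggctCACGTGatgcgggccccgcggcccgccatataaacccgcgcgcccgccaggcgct
B3GALT6: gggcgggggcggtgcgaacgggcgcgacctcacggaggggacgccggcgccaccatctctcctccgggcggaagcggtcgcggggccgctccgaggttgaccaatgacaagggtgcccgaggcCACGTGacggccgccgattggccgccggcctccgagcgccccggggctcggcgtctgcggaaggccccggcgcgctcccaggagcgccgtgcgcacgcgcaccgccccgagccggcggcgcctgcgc
ANXA6: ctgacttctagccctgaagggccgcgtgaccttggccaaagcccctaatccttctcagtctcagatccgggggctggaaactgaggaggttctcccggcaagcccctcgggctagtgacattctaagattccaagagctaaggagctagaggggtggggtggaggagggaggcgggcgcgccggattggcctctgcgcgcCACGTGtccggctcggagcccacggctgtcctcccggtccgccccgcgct
PRKAR2B: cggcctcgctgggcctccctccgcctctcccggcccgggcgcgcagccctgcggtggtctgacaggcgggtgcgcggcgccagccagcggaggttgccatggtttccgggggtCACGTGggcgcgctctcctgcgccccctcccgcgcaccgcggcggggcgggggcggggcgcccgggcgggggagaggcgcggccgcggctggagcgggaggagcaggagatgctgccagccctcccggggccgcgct
CACGTG is its own reverse complement, so both strands are read at once. A promoter was found by symbol for 10372 of the 15674 genes tested, and 921 of these (8.88%) held CACGTG in this window, against 6.49% of all 27305 promoters. The share was 11.6% of 155 shared rises, 15.4% of 39 shared falls, 11.4% of 88 opposite genes, 8.94% of 2003 HCT116-specific genes and 6.99% of 229 Ramos-specific genes. Among 17 sterol genes with a promoter found, 2 (11.8%) held it. These are descriptions over groups of very unequal size, with no test.

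Shared rises were ranked by the smaller of the changes in the 2 lines, and the first 8 among protein-coding genes with at least 2 RPKM in each line and no overlap of the groups were P4HA2, LIME1, B4GAT1, DHCR7, PGP, FBRSL1, B3GALT6 and CYB561D2. LIME1, an adaptor protein of lymphocyte signaling, rose from 6.42, 6.55 and 5.17 to 10.3, 11.1 and 9.97 RPKM in HCT116 and from 24.2, 26.1 and 25.4 to 34.9, 40.1 and 42.5 in Ramos. Its changes were 0.75 and 0.62, with an interval of -0.15 to 0.41 for the difference. PGP, a phosphatase that clears phosphoglycolate, rose by 0.54 and 0.48. B3GALT6, which builds the linker of proteoglycan chains, rose by 0.43 and 0.50, and P4HA2, a collagen prolyl hydroxylase subunit, by 0.92 and 0.71. B4GAT1, a glycosyltransferase of dystroglycan, and FBRSL1 rose by 0.51 and 0.53 in HCT116 and 0.52 and 0.44 in Ramos. CYB561D2, which overlaps genes of the other strand, rose more in HCT116, by 1.09 against 0.43 (difference 0.66, adjusted p = 0.0003, limma). ODC1, the first enzyme of polyamine synthesis and a classical MYC target, also rose in both, from 284, 295 and 301 to 360.3, 363 and 318 RPKM in HCT116 and from 579.6, 589 and 575 to 703, 713 and 705 in Ramos. LIME1, PGP, B3GALT6, CYB561D2 and ODC1 kept the Ramos call when any 1 library was left out, and ODC1 lost it under median-ratio scaling (adjusted p = 0.0585, limma). P4HA2 lost it without each of 11 of the 12 libraries (adjusted p up to 0.131), B4GAT1 without 5 of the Ramos libraries (up to 0.114) and FBRSL1 without 4 (up to 0.0866). At the lower HCT116 dose, the HCT116 changes of B4GAT1 (0.15) and B3GALT6 (0.21) did not pass (adjusted p = 0.418 and 0.059, limma). Those of the other genes named here passed at that dose.

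The shared falls picked in the same way were CD24, ASAP1, ZFP36L1, TMSB4X, GABARAPL1, PHLDA1, KIAA1147 and ANXA6. CD24, a surface glycoprotein of B cells and carcinomas, fell from 11.4, 11.9 and 13.2 to 5.83, 6.6 and 5.6 RPKM in HCT116 and from 4.94, 4.54 and 4.07 to 2.74, 3.04 and 2.87 in Ramos, changes of -0.96 and -0.57. TMSB4X, the actin-binding thymosin beta 4, fell from 189, 194 and 205 to 155, 164 and 127 RPKM in HCT116 and from 563, 583 and 553 to 418, 386 and 383 in Ramos. The absence of overlap between groups was part of the rule that picked them. The other members were ASAP1, which turns off ARF GTPases (-0.53 and -0.58), ZFP36L1, which speeds the decay of AU-rich mRNAs (-0.46 and -0.56), the autophagy protein GABARAPL1 (-0.43 and -0.39), KIAA1147 (-0.59 and -0.37) and the annexin ANXA6 (-0.61 and -0.37). PHLDA1, a gene induced by growth factors, fell more in Ramos, by 0.69 against 0.37 (adjusted p = 0.0238 for the difference, limma), which turned to the opposite sign with an equal sum over all genes. The call for that difference was lost without treated Ramos replicate 3 or untreated HCT116 replicate 1 or 2 (adjusted p up to 0.0591). That of CD24, -0.39 (adjusted p = 0.0422), was lost without each of 9 of the 12 libraries (up to 0.106). The Ramos calls of ZFP36L1, GABARAPL1 and KIAA1147 were lost without treated Ramos replicate 1 or untreated replicate 2, without treated replicate 2, and without each of 4 Ramos libraries (up to 0.0595, 0.0621 and 0.0777). At the lower HCT116 dose, the HCT116 changes of ASAP1 (-0.25), ZFP36L1 (-0.25) and GABARAPL1 (-0.22) did not pass (adjusted p = 0.144, 0.0518 and 0.0972, limma). Those of the other genes named here passed at that dose.

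Opposite responses had the clearest example in SEMA7A, a membrane-bound semaphorin. It rose from 3.75, 4.14 and 4.2 to 7.24, 7.87 and 7.1 RPKM in HCT116 and fell from 12, 9.12 and 9.69 to 4.29, 4.2 and 3.81 in Ramos. The changes were 0.80 and -1.22, a difference of 2.02 (interval 1.73 to 2.32, adjusted p = 1.05e-05, limma). ADM, the vasodilator peptide adrenomedullin, rose from 21, 22.6 and 17.4 to 43.9, 42.4 and 42.3 RPKM in HCT116 and fell from 12.6, 13.4 and 14 to 9.45, 9.58 and 9.65 in Ramos. CD40, the costimulatory receptor of B cells, rose from 11.6, 10.8 and 10.2 to 15.6, 16.3 and 15.6 RPKM in HCT116 and fell from 47.2, 46.5 and 47.1 to 39.6, 36.5 and 37.5 in Ramos. The same orientation held for SYNGR2, a vesicle protein (0.54 and -0.30), CD58, the ligand of CD2 (0.43 and -0.40), PLXNA3, a semaphorin receptor (0.72 and -0.52), the adhesion receptor ADGRE5 (0.36 and -0.30) and the adaptor BCAR3 (0.28 and -0.33). CD274, which encodes PD-L1, was at 1.13, 0.605 and 0.617 RPKM in untreated and 1.04, 1.11 and 1.91 in treated HCT116, where the groups overlapped, and at 10.1, 8.39 and 8.94 and 5.07, 4.78 and 5.43 in Ramos. Its HCT116 rise of 0.52 was lost without each of 8 libraries (adjusted p up to 0.166) and its Ramos fall of 0.79 without any of the 6 Ramos libraries (up to 0.108), while the difference of 1.31 was kept. The Ramos calls of CD58, PLXNA3, ADGRE5 and BCAR3 were likewise lost without 3 or more libraries, treated Ramos replicate 2 or 3 among them (adjusted p up to 0.105, 0.111, 0.0678 and 0.0944), and those of SEMA7A, ADM, CD40 and SYNGR2 were kept in each of the 12 fits.

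The reverse orientation, down in HCT116 and up in Ramos, was the more frequent. NUDT8, a nudix hydrolase, fell from 6.85, 7.34 and 7.44 to 4.43, 5.49 and 5 RPKM in HCT116 and rose from 13.4, 12.3 and 13.7 to 19.7, 20.4 and 19.4 in Ramos (difference -1.07, adjusted p = 9.16e-05, limma). UNG, the uracil glycosylase of base excision repair, fell from 67.6, 61.6 and 65.2 to 50.2, 50.3 and 47.4 RPKM in HCT116 and rose from 21.9, 24.5 and 22.7 to 29.8, 30.3 and 28.4 in Ramos. These 2 genes kept both calls without any 1 library and under the 3 scalings. SARDH, which oxidizes sarcosine, changed by -0.68 and 0.50, the G protein subunit GNAZ by -0.53 and 0.41, and PRKAR2B, a regulatory subunit of protein kinase A, by -0.63 and 0.40. NQO1, a quinone reductase, changed by -0.55 and 0.39, but at very different levels, 429, 446 and 463 RPKM in untreated HCT116 and 1.97, 2.08 and 1.54 in untreated Ramos. IMPA2, an inositol phosphatase, and SLC25A23, a mitochondrial carrier, changed by -0.49 and -0.55 in HCT116 and 0.38 and 0.36 in Ramos. Treated Ramos replicate 2 was among the libraries without which the Ramos calls of SARDH, GNAZ, PRKAR2B, NQO1, IMPA2 and SLC25A23 were lost (adjusted p up to 0.062, 0.0695, 0.0688, 0.125, 0.124 and 0.101).

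**Figure D3:**
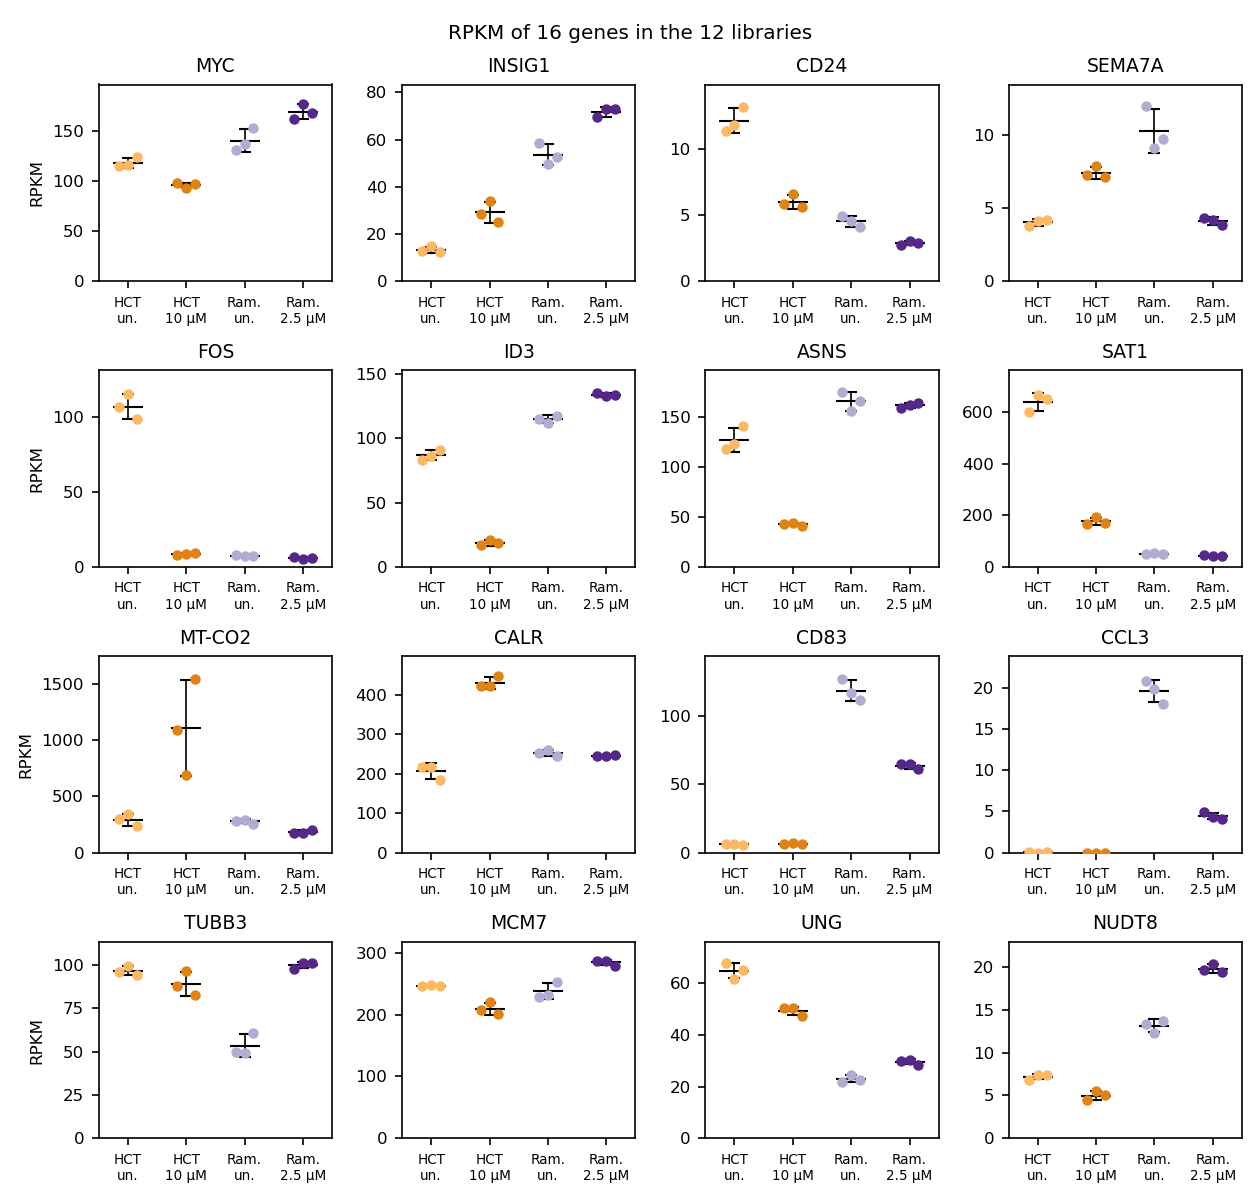
RPKM (vertical axes, linear, from 0) of 16 genes in the 12 libraries, 1 panel a gene. Points are libraries, bars the mean and SD of the 3 replicates of untreated (un.) and treated HCT116 (HCT) and Ramos (Ram.) cells. FOS, ID3, ASNS and SAT1 fall in HCT116 and did not pass in Ramos, CD83 and CCL3 fall from high levels in Ramos, and the 3 treated HCT116 libraries are widely spread for MT-CO2, from 692 to 1547 RPKM.

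The DNA replication genes, which act downstream of E2F factors in S phase, diverged as a group by small amounts. Of 30 tested, 10 fell and 2 rose in HCT116, 14 rose and 0 fell in Ramos, and 18 differed with the lower change in HCT116 against 1 with the higher. Among all genes, 12.9% differed with the lower change in HCT116 and 9.65% with the higher. The medians were -0.08 in HCT116 and 0.17 in Ramos. MCM7, a subunit of the replicative helicase, fell from 246, 247 and 247 to 207, 219.6 and 200.2 RPKM in HCT116 and rose from 229, 232 and 252 to 287, 287 and 279 in Ramos (difference -0.50, adjusted p = 0.000461, limma). Its partners MCM2 and MCM4 changed by -0.26 and -0.20 in HCT116 and 0.30 and 0.25 in Ramos, and the flap nuclease FEN1 by -0.20 and 0.21. Of 24 genes of nucleotide synthesis, 8 fell and 5 rose in HCT116, 5 rose and 0 fell in Ramos, and 12 differed, all with the lower change in HCT116, beside 4.15% of all genes that rose in Ramos. Those 5 rises were 2, 1 and 1 under the 3 scalings and 0 to 7 without 1 library, with 0 without treated Ramos replicate 2 or 3, 1 to 2 without untreated Ramos replicate 1 or 2, treated replicate 1 or any untreated HCT116 library, and 3 without treated HCT116 replicate 1. TYMS, which makes thymidylate, rose by 0.49 in Ramos and changed by -0.08 in HCT116, and RRM2, the regulated subunit of ribonucleotide reductase, by 0.27 and -0.11. Under the 3 scalings 3 to 6 replication genes rose in Ramos and 14 to 16 had the lower change in HCT116, and without 1 library 3 to 15 and 14 to 18 did. The lowest counts of rises, 3 to 8, came without untreated Ramos replicate 1 or 2 or any treated Ramos library. MCM7 lost its Ramos call under median-ratio scaling (adjusted p = 0.0661, limma). Without treated Ramos replicate 2, the Ramos calls of MCM2, MCM4, FEN1, TYMS and RRM2 were lost (adjusted p of 0.0553 to 0.0931).

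Cytosolic ribosomal proteins, which MYC is known to drive, had medians of 0.0789 in HCT116 and 0.00699 in Ramos. Of 79 tested, 17 rose and 4 fell in HCT116, where 18.9% of all genes rose and 15.5% fell, and 0 passed in Ramos. These HCT116 counts depended on the setting, with 22 rises and 17 falls after quantile normalization, 1 and 20 with an equal sum over all genes, 31 rises without treated HCT116 replicate 3 and 10 or 11 without untreated replicate 1 or treated replicate 1 or 2. The falls numbered 8 without treated HCT116 replicate 2 and 2 without untreated replicate 2 or 3. Of 42 ribosome biogenesis genes, 9 rose and 4 fell in HCT116, beside the same 18.9% and 15.5%, and 4 rose in Ramos. Those 4 rises were 2, 2 and 3 under the 3 scalings and 1 to 6 without 1 library. FBL, the methyltransferase of rRNA, was at 124, 107 and 109.6 and 123, 114 and 129.8 RPKM in HCT116 and rose from 78.4, 79.4 and 91 to 126, 121 and 121 in Ramos (change 0.56, difference -0.45, adjusted p = 0.00872, limma). Of 22 glycolysis genes, 7 rose and 4 fell in HCT116 and 1 rose in Ramos, where 4.15% of all genes did. Mitosis genes gave 10 rises and 2 falls of 30 in HCT116 and 2 rises in Ramos, and p53 targets 3 rises and 8 falls of 20 in HCT116 and 1 of each in Ramos. Beside these too stand 18.9% rises and 15.5% falls of all genes in HCT116 and 4.15% and 1.51% in Ramos.

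The HCT116-specific falls were led at 10 μM by immediate early genes, which are switched on within minutes by growth signals. FOS was at 106, 115 and 98.4 RPKM in untreated and 7.73, 8.45 and 9.26 in treated HCT116 cells. In Ramos it was at 8.03, 7.34 and 6.9 and 6.67, 5.31 and 5.78, so that the treated HCT116 cells came down to about the Ramos level. The change was -3.58 in HCT116 and -0.31 in Ramos (difference -3.27, interval -3.56 to -2.98, adjusted p = 1.73e-07, limma). FOSB fell from 15.7, 18.5 and 15.3 to 2.82, 1.81 and 1.31 RPKM and EGR1 from 21.8, 20.3 and 21.5 to 4.47, 3.71 and 4.75 in HCT116, and neither passed in Ramos (-0.17 and -0.29). Of 22 such genes tested, 14 fell and 0 rose in HCT116 and 4 fell and 0 rose in Ramos, and 9 had the lower change in HCT116 against 1 with the higher. At the lower HCT116 dose 7 fell and 1 rose, the median was -0.069 in place of -0.42, and 5 had the lower and 3 the higher change in HCT116. The differences at that dose were -1.63 for FOS, -1.28 for FOSB and -0.65 for EGR1. The Ramos falls of the list numbered 2 without untreated Ramos replicate 1 or any treated Ramos library. EGR2 was among those that fell in both with HCT116 at 10 μM. It went from 32.7, 30.1 and 30.5 to 14.7, 13.6 and 14.4 RPKM in Ramos and from 0.708, 0.941 and 0.491 to 0.342, 0.115 and 0.316 in HCT116, where it is barely expressed. At the lower HCT116 dose EGR2 did not fall there (0.15, adjusted p = 0.535, limma) and differed from Ramos by 1.255 (adjusted p = 0.0051). BTG2, an antiproliferative gene of the same list, changed by -0.43 and -0.31, and its Ramos call was lost without each of 4 Ramos libraries (adjusted p up to 0.0739). Its HCT116 change of -0.16 at the lower dose did not pass.

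Of 19 ERK output genes tested, only 5 were at 0.5 RPKM or more in both lines, so that most could be followed in a single line. The ERK phosphatase DUSP6 fell from 152, 159.9 and 160.1 to 51.7, 56.2 and 50.9 RPKM in HCT116, and the feedback inhibitor SPRY4 from 31.5, 29.6 and 29.7 to 12, 13.2 and 13.8, while both were below 0.5 RPKM in each Ramos library. DUSP5, a nuclear ERK phosphatase, fell from 4.21, 3.68 and 3.73 to 1.51, 1.35 and 1.32 RPKM in Ramos, by 1.21, and by 0.20 in HCT116 (difference 1.0, adjusted p = 6.4e-05, limma). The small HCT116 fall of DUSP5 was lost without untreated HCT116 replicate 1 or 3 or treated replicate 2 or 3 (adjusted p up to 0.108). At the lower HCT116 dose DUSP5 changed there by 0.01, which did not pass. Of the 19, 9 fell and 3 rose in HCT116, beside 15.5% and 18.9% of all genes. In Ramos 3 fell, beside 1.51% of all genes, and 2 of these fell in both lines.

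ID proteins pair with bHLH factors, cannot bind DNA and are induced by BMP signaling, and 3 of their genes fell strongly in HCT116 and did not fall in Ramos. ID3 fell from 83.4, 86.5 and 91.3 to 16.7, 20.9 and 18.2 RPKM in HCT116 and was at 115, 112 and 118 and then 135, 133 and 134 in Ramos. Its changes were -2.20 and 0.22, a difference of -2.42 (interval -2.63 to -2.21, adjusted p = 1.73e-07, limma). ID2 fell from 64.2, 65 and 66.5 to 12.8, 15.3 and 13.7 RPKM in HCT116 and was at 48.4, 48.4 and 49 and 54.8, 49 and 55.7 in Ramos. ID1 fell from 264, 274 and 271 to 87.7, 102 and 86.1 in HCT116 and rose from 14.3, 14.5 and 13.7 to 18.9, 16 and 17.2 in Ramos, and that rise of 0.28 was lost without each of 9 of the 12 libraries (adjusted p up to 0.123). SMAD7, an inhibitor of the same receptors, fell by 1.12 in HCT116. Of 11 genes of ID proteins and BMP or TGF-beta feedback tested, 7 fell and 0 rose in HCT116, and 2 rose and 0 fell in Ramos. The Ramos rises numbered 0 under each of the 3 scalings, and 8 of the 11 had the lower change in HCT116. Only 6 of the 11 were at 0.5 RPKM or more in both lines. At the lower HCT116 dose the differences of ID3 and ID2 were -2.00 and -1.64. Of the list, 7 fell and 2 rose in HCT116 at that dose, and 5 had the lower change in HCT116. The HCT116 median was then -0.293 in place of -0.55.

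Targets of ATF4, the factor of amino acid shortage, fell mainly in HCT116. Of 33 tested, all with at least 0.5 RPKM in both lines, 25 fell and 2 rose in HCT116 and 4 fell and 1 rose in Ramos, and 20 had the lower change in HCT116 against 4 with the higher. The medians were -0.52 and -0.04, and 15.5% of all genes fell in HCT116 and 1.51% in Ramos. At the lower HCT116 dose 24 fell and 0 rose, and ASNS differed by -1.42. ASNS, asparagine synthetase, fell from 118, 123 and 141 to 42.7, 43.5 and 41.3 RPKM in HCT116 and was at 175, 156 and 166 and 159, 162 and 164 in Ramos (changes -1.57 and -0.03, difference -1.53, adjusted p = 2.8e-06, limma). CHAC1, which degrades glutathione, fell from 12.3, 12.5 and 16.5 to 2.23, 2.81 and 2.57 RPKM in HCT116 and changed by -0.23 in Ramos. The serine synthesis enzymes PHGDH and PSAT1 fell by 1.15 and 1.01 and the gluconeogenic enzyme PCK2 by 1.25, against Ramos changes of 0.22, -0.0041 and 0.06, of which that of PHGDH passed but was lost without each of 5 Ramos libraries (adjusted p up to 0.118). SAT1, which acetylates polyamines for export, fell from 603, 667 and 650.2 to 166, 192 and 171 RPKM in HCT116 and was at 51.1, 53.8 and 47.9 and 44.4, 42 and 43 in Ramos. Of 15 genes of polyamine metabolism, 3 rose and 5 fell in HCT116 and 1 rose in Ramos, beside 18.9%, 15.5% and 4.15% of all genes. TRAPPC6A, a subunit of a vesicle-tethering complex, fell by 1.08 in HCT116 and its change of 0.33 in Ramos did not pass.

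The HCT116-specific rises were led by transcripts of the mitochondrial genome, which code for subunits of the respiratory chain. Of its 13 mRNAs, 12 rose in HCT116 and 0 passed in Ramos, where the median was -0.50, and 12 differed. MT-ND2 was at 42.8, 55.8 and 36.4 RPKM in untreated and 244, 160.1 and 333 in treated HCT116, and at 80.4, 79.7 and 59 and 38.1, 42.7 and 62.1 in Ramos. MT-CO2 was at 297, 341 and 234 and 1090.0, 692 and 1547 in HCT116 and at 284, 294 and 258 and 176, 177 and 202 in Ramos. The treated HCT116 libraries were widely spread, and replicate 3 of them was the highest for both genes. The changes of MT-ND2 were 2.39 and -0.63 (difference 3.02, interval 2.21 to 3.83, adjusted p = 0.000377, limma). MT-CO1, MT-CO3 and MT-ND1 changed by 1.40, 1.52 and 2.08 in HCT116 and by -0.45, -0.43 and -0.57 in Ramos. The small RNAs of RNA polymerase III moved the same way in these libraries: RN7SK was at 27878, 39773 and 31842 RPKM in untreated and 47835, 58340.3 and 69804 in treated HCT116 and at 139108, 163602 and 137384 and 108238, 91768 and 91961 in Ramos. Their part in the mitochondrial result was not tested.

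Chaperones of the endoplasmic reticulum rose mainly in HCT116. Of 19 tested, 15 rose and 1 fell in HCT116 and 2 rose and 1 fell in Ramos, 12 had the higher change in HCT116 against 1 with the lower, and the medians were 0.47 and -0.001. With an equal sum over all genes 2 had the higher and 2 the lower change in HCT116. CALR, the lectin chaperone calreticulin, rose from 218, 218 and 184 to 424, 422 and 448 RPKM in HCT116 and was at 253, 260.0 and 244 and 245, 244 and 247 in Ramos (difference 1.10, adjusted p = 2.66e-05, limma). HSPA5, the chaperone BiP, rose by 0.59 in HCT116 and changed by -0.03 in Ramos. Of 14 heat shock proteins, 8 rose in HCT116 and 1 in Ramos. Of 9 WNT targets tested, only 2 of which were at 0.5 RPKM in Ramos, 5 fell in HCT116 and 0 passed in Ramos. NOTUM, which inactivates WNT ligands, fell from 7.16, 8.3 and 7.73 to 3.37, 3.84 and 3.09 RPKM in HCT116. Of 11 YAP and TEAD targets 4 rose and 5 fell in HCT116, of 17 NRF2 genes 3 rose and 4 fell there and 4 rose in Ramos (1, 1 and 0 under the 3 scalings, and 0 to 2 without untreated Ramos replicate 1 or 2 or treated replicate 2 or 3), and of 14 circadian genes 2 rose and 1 fell in HCT116 and 1 fell in Ramos. For the lists of this paragraph, the shares of all genes were 18.9% rises and 15.5% falls in HCT116 and 4.15% and 1.51% in Ramos.

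**Figure D4:**
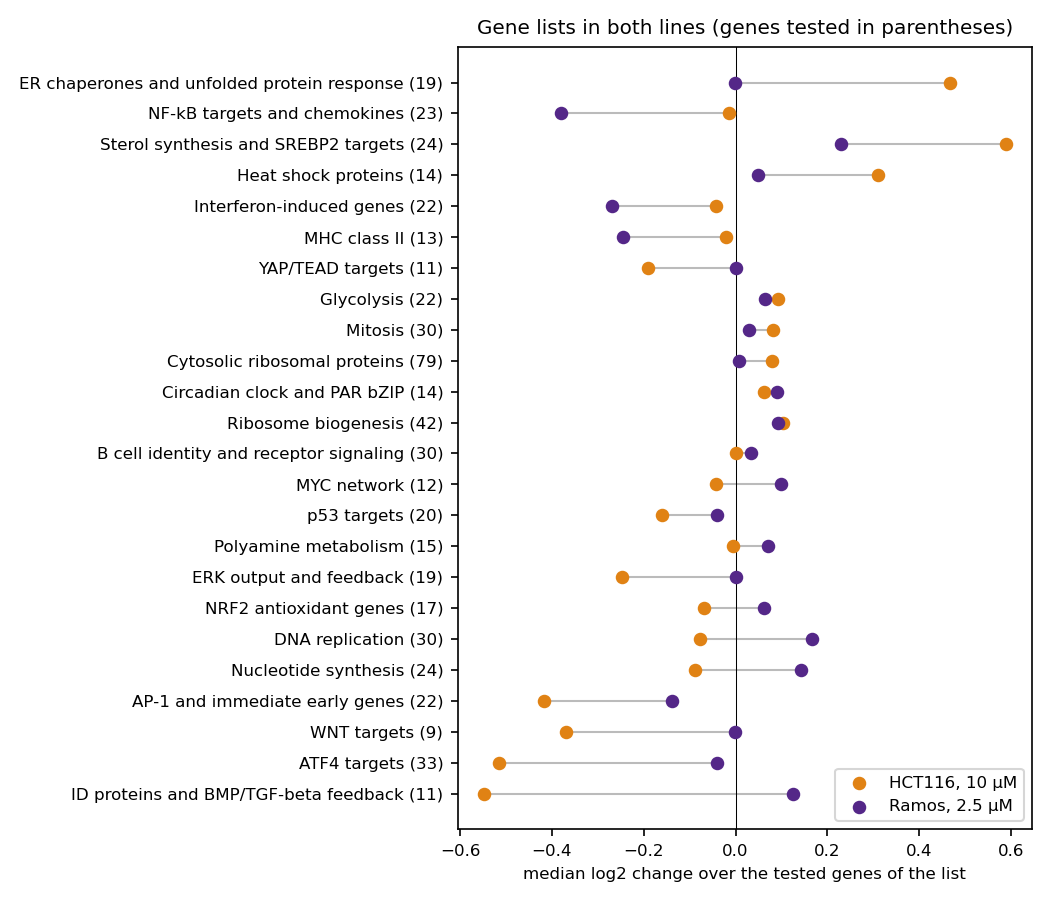
Median log2 change over the tested genes (number in parentheses) of 24 gene lists in HCT116 cells with 10 μM (orange) and Ramos cells with 2.5 μM Omomyc (purple), ordered by the median difference. Sterol genes are the 1 list with both medians above 0.2, ATF4 and ID lists are low in HCT116, and NF-kB, interferon and MHC class II lists are low in Ramos. The mitochondrial list, at 1.86 and -0.50, is left out for scale.

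In Ramos the falls were led by chemokines and other targets of NF-kB, the factor downstream of CD40 and of antigen receptors in B cells. Of 23 tested, 15 fell and 0 rose in Ramos and 1 fell and 2 rose in HCT116. The Ramos median was -0.38 against 0.03 for all genes, beside 1.51% of all genes that fell there. CD83, a surface marker of activated B cells, fell from 127, 117 and 112 to 64.7, 65.2 and 61.1 RPKM in Ramos and was at 6.08, 6.59 and 5.65 and 6.38, 6.7 and 6.35 in HCT116. Its change of -0.89 differed from that in HCT116, 0.08, by 0.97 (interval 0.78 to 1.16, adjusted p = 5.8e-05, limma). CCL3 and CCL4, chemokines that draw T cells and monocytes, fell from 20.9, 20.0 and 18.1 to 4.91, 4.34 and 4.12 RPKM and from 11.2, 11.4 and 7.08 to 2.25, 2.28 and 1.79. CCL1 fell from 8.53, 4.48 and 6.92 to 1.11, 0.993 and 1.08. The 3 chemokines were at 0.0646 RPKM or less in every HCT116 library, so that their difference between lines restates the Ramos fall, of 2.02, 1.97 and 2.15. Further members that fell in Ramos were the cytokine TNF (-0.52), TNFAIP3, which shuts off NF-kB signaling (-0.77), the cytokine subunit EBI3 (-1.19) and the survival gene BCL2A1 (-0.76). Of the 23, 11 were at 0.5 RPKM or more in both lines and 9 differed, all with the higher change in HCT116. With HCT116 at its lower dose, 7 rose and 1 fell there, where 26.1% of all genes were called. At that dose 13 differed, all with the higher change in HCT116, beside 16.3% of all genes. TNFAIP3 then rose by 0.35 in HCT116 (adjusted p = 0.0415, limma). Between 14 and 16 fell in Ramos under the 3 scalings, and between 10 and 15 without 1 library (10 fell and 3 rose with an equal sum over all genes), and each of the 8 genes named here kept its Ramos call under the 3 scalings and without any 1 library.

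IRF9, the DNA-binding subunit of the interferon-activated complex, fell from 25.6, 23.7 and 19.6 to 17, 14.1 and 12.6 RPKM in Ramos and was at 4.36, 4.86 and 4.08 and 4.12, 4.03 and 4.6 in HCT116 (difference 0.58, adjusted p = 0.0286, limma). That difference was lost without each of 7 of the 12 libraries (adjusted p up to 0.0721), and the Ramos fall without treated replicate 2 or 3 (up to 0.0581). Of 22 interferon-induced genes, 4 fell in Ramos and 1 in HCT116, where 2 rose, and of 13 MHC class II genes 2 fell in each line and 1 rose in HCT116, and 5 of the 13 were at 0.5 RPKM or more in both lines, beside 1.51% of all genes that fell in Ramos. The Ramos falls of the interferon list numbered 0 and 1 without treated Ramos replicate 2 or 3, 2 without untreated Ramos replicate 1 or 2 or any untreated HCT116 library, 6 without untreated Ramos replicate 3 and 1 with an equal sum over all genes. Those of the MHC class II list numbered 1 without any treated Ramos library and 3 or 4 without a treated HCT116 library. ITGB2, the beta chain of leukocyte integrins, fell from 6.37, 4.01 and 3.59 to 1.54, 1.56 and 1.21 RPKM, and the transcription factor STAT5A from 4.81, 3.45 and 3.28 to 1.81, 1.12 and 1.12. Of 30 genes of B cell identity and receptor signaling, 2 rose and 2 fell in Ramos and 3 rose and 1 fell in HCT116.

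Genes expressed in both lines with a fall specific to Ramos were led, by the size of the difference, by COMMD3-BMI1, a read-through of neighboring genes whose reads cannot be separated from theirs. It was at 3.09, 6.89 and 2.65 and 0, 2 and 0.001 RPKM and its difference of 2.36 was lost without each of 10 of the 12 libraries (adjusted p up to 0.0994, limma). After it and CD83 came SELENOW, a selenoprotein, which fell from 11.3, 8.23 and 9.06 to 4.41, 4.07 and 5.79 RPKM in Ramos and was at 111, 112 and 103 and 99.7, 110.0 and 95.7 in HCT116. PER1, a clock gene, ST3GAL1, a sialyltransferase, and INSIG2, the second INSIG protein, fell by 0.49, 0.65 and 0.53. INSIG2 thus fell in Ramos where INSIG1 rose, and its HCT116 change of 0.10 at 10 μM did not pass. At the lower HCT116 dose INSIG2 and PER1 rose there by 0.36 and 0.48 (adjusted p = 0.00861 and 0.00276, limma), so that their lines moved in opposite directions. The change of ST3GAL1 at that dose, 0.25, did not pass. The call for PER1 in Ramos was lost without each of 5 Ramos libraries (adjusted p up to 0.0912).

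The rises specific to Ramos were smaller. TUBB3, a beta tubulin best known from neurons, rose from 49.8, 49.3 and 60.9 to 97.6, 101 and 101 RPKM and was at 95.9, 99.3 and 94.4 and 87.7, 96.4 and 82.6 in HCT116 (difference -1.03, interval -1.27 to -0.79, adjusted p = 0.000162, limma). ATP5F1D, a subunit of ATP synthase, rose from 47, 38.3 and 43.2 to 67.2, 67.9 and 61.7 and was at 76.1, 74.2 and 74.4 and 68.3, 68.1 and 73.7 in HCT116. The 2 genes kept their calls without any 1 library and under the 3 scalings. The others picked for size were JMJD7, SH2B2, C9orf40, GCSH, SH3TC1, HES6, MEX3D and CCDC85B. The adaptor SH2B2 and HES6, a bHLH repressor, rose by 0.69 and 0.70, and lost the Ramos call without treated Ramos replicate 1, 2 or 3 (adjusted p up to 0.115 and 0.0753). Their differences of -0.78 and -0.67 were lost without each of 7 and 8 of the 12 libraries (up to 0.0743 and 0.076). At the lower HCT116 dose SH2B2 changed by 0.42 in HCT116 and its difference of -0.27 did not pass (adjusted p = 0.409, limma), while that of HES6 passed (-0.74).

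Some large changes had no counterpart to compare, because the gene was at less than 0.5 RPKM on average in the other line. In HCT116 the largest such rises were those of CPA4, a carboxypeptidase, from 2.67, 2.13 and 1.73 to 9.14, 8.13 and 10.7 RPKM, and of ANGPTL4, an inhibitor of lipoprotein lipase, from 2.98, 2.92 and 2.47 to 10.3, 8.66 and 10.3. DHRS3, which reduces retinal, HAS3, which makes hyaluronan, and the hormone AMH rose by 1.41, 1.21 and 1.16. Falls were largest for TNFSF18, a TNF family ligand, from 5.74, 5.78 and 5.06 to 1.04, 1.29 and 0.779 RPKM, and CYP24A1, which inactivates vitamin D, from 49.3, 44.2 and 47.2 to 15.5, 14.4 and 12, followed by DUSP6, the keratin KRT23 (-1.36) and ZNF704 (-1.26). In Ramos the largest rises were those of LRRC14B, from 11.3, 10.2 and 11.6 to 18.1, 18 and 17.7 RPKM, the thrombin receptor F2RL3 (0.65), the potassium channel KCNK12 (0.59), the homeobox gene NKX6-3 (0.57) and HPDL (0.51). The falls were those of CCL1, CCL3, CCL4, ITGB2 and STAT5A described above. KCNK12 and HPDL lost their Ramos calls without treated replicate 3 and 2 (adjusted p of 0.0523 and 0.0588, limma), and HPDL its difference without treated replicate 2 (0.0517).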

How the data were processed

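RNA-seq was analysed in 12 libraries made with a stranded total RNA kit after removal of ribosomal RNA. The authors deposited RPKM values in 1 table. Their submission notes name RSEM, and the aligner, genome build, annotation and use of strand in counting are not given in the sources used here, and neither is the depth of a library. Genes that overlap others or have near copies, such as CCL3, CCL4, TMSB4X and CYB561D2, are therefore uncertain. Groups were taken from the labels. Symbols came from a GENCODE table that matched 57388 of the 57992 identifiers. Log2(RPKM + 0.5) of the genes kept (mean of 0.5 RPKM or more) was fitted over the 4 groups with limma 3.58.1 in R 4.3.3, with a trended prior, and p-values were Benjamini-Hochberg adjusted over all 15674 genes. Fold changes on this scale understate those of low genes. Genes were named by their rank in each class (protein-coding, at least 2 RPKM, no overlap of the groups), by membership of the lists, or as MYC and its partners. The members and lists were chosen with earlier results of these data known. The values of 2 sterol genes are not reported here. The fit was tested on simulated data. Alternatives were the pseudocount, filter, scaling, prior, threshold, replicate block, dose, samples fitted and leaving out each library.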

Additional observations from a re-analysis of the deposited data

Results flagged for a closer look

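The response to Omomyc differed between the lines, by the interaction test in limma, for 3530 genes, and for each of the genes below, given with its difference of log2 changes, HCT116 minus Ramos. Of the 3530, 709 were at less than 0.5 RPKM on average in 1 line. For CPA4, KRT23, TNFSF18, CCL1, CCL3, CCL4, F2RL3 and NKX6-3 among them, this difference restates the change in the other line. For AMH and HAS3 in Ramos and ITGB2 in HCT116, changes of 0.27, -0.19 and 0.27 in the low line, which did not pass, entered it as well. Groups of 3 libraries were too small for a test of single outlying samples.

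With the higher change in HCT116, the differences of largest size were those of MT-ND2 (3.02), MT-ND1 (2.65), MT-CO2 (2.46), COMMD3-BMI1 (2.36), CCL1 (2.15), SEMA7A (2.02), CCL4 (1.97), MT-CO3 (1.96), CCL3 (1.94), CPA4 (1.88), MT-CO1 (1.85), ITGB2 (1.65), ANGPTL4 (1.65) and ADM (1.52). Differences of intermediate size were those of DHRS3 (1.41), HAS3 (1.40), CD274 (1.31), PLXNA3 (1.24), STAT5A (1.18), CALR (1.10), EBI3 (1.10), DUSP5 (1.0), CD83 (0.97), AMH (0.89), EBP (0.86), SYNGR2 (0.84), SELENOW (0.84), CD40 (0.83), BCL2A1 (0.83) and CD58 (0.83). The smaller ones were those of SC5D (0.79), PER1 (0.78), ST3GAL1 (0.70), INSIG1 (0.67), ADGRE5 (0.66), CYB561D2 (0.66), TNFAIP3 (0.66), MSMO1 (0.65), INSIG2 (0.62), HSPA5 (0.62), BCAR3 (0.60), IRF9 (0.58), TNF (0.54), SQLE (0.36) and PHLDA1 (0.32).

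With the lower change in HCT116, the differences of largest size were those of FOS (-3.27), FOSB (-2.64), ID3 (-2.42), ID2 (-2.31), CHAC1 (-2.00), TNFSF18 (-1.98), EGR1 (-1.89), ID1 (-1.83), CYP24A1 (-1.79), SAT1 (-1.62) and ASNS (-1.53). Differences of intermediate size were those of TRAPPC6A (-1.41), DUSP6 (-1.40), PHGDH (-1.36), KRT23 (-1.36), SMAD7 (-1.34), PCK2 (-1.31), ZNF704 (-1.26), SPRY4 (-1.21), SARDH (-1.18), NUDT8 (-1.07), NOTUM (-1.07), PRKAR2B (-1.03), TUBB3 (-1.03), PSAT1 (-1.0), GNAZ (-0.94), NQO1 (-0.93), SLC25A23 (-0.91) and IMPA2 (-0.87). The smaller ones were those of SH2B2 (-0.78), UNG (-0.74), MXD4 (-0.72), ATP5F1D (-0.71), HES6 (-0.67), LRRC14B (-0.66), F2RL3 (-0.65), KCNK12 (-0.59), TYMS (-0.58), MYC (-0.57), NKX6-3 (-0.57), MCM2 (-0.56), MCM7 (-0.50), HPDL (-0.49), MXI1 (-0.46), FBL (-0.45), MCM4 (-0.45), FEN1 (-0.42), CD24 (-0.39) and RRM2 (-0.38).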

How the results depend on the processing

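The genes whose response differed between the lines numbered 3530, against 6763 with an equal sum over all genes, 2241 with all 30 libraries in the fit, 1616 at an adjusted p under 0.01 and 220 with a log2 change of at least 1. For the last 2 thresholds the HCT116 calls numbered 3239 and 155. Ramos calls, 887 as reported, numbered 460, 433 and 456 under median-ratio, quantile and protein-coding scaling (the last added after the sums were seen), 4596 with the equal sum, 376 with all 30 libraries, 212 with each line fitted alone, and 176 and 24 at the stricter thresholds. Shared genes, 254, numbered 147 with no filter, 121, 113 and 122 under those scalings, 164 with no trend, 57 with all libraries, 55 with lines alone, and 39 and 1. Opposite genes, 112, numbered 59, 57, 55, 59, 68, 24, 26, 12 and 0 in that order and 1318 with the equal sum. HCT116-specific genes, 2716, numbered 1787 with all libraries, 1737 at the lower HCT116 dose, 1347 and 114. Ramos-specific genes, 313, numbered 199, 191 and 195 under the scalings, 1896 with the equal sum, 189 with all libraries, 80 with lines alone, and 80 and 19. Replicate numbers did not pair the libraries, with correlations of deviations between -0.219 and 0.048, and a replicate block left 2566 differences, 259 Ramos calls and 72 shared, 30 opposite and 120 Ramos-specific genes. Leaving out 1 library gave 2563 to 3335 differences, 3962 to 5591 HCT116 calls, 245 to 1018 Ramos calls, 70 to 309 shared, 24 to 140 opposite, 1958 to 2619 HCT116-specific and 123 to 373 Ramos-specific genes. Directions turned for the HCT116 responses of DUSP5 (0.0114), EGR2 (0.1541) and TNFAIP3 (0.3515) at the lower dose, and for the differences of MAX (-0.3827), PHLDA1 (-0.0552) and SQLE (-0.022) with the equal sum. The causes were not tested. Depth is unknown, so the counting error of low genes cannot be given.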
